A study of Mus musculus with 6 samples.

Results

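Calcium that enters a neuron, or is released inside it, has to be returned to the store or pushed out of the cell. Pumps of the SERCA family (genes Atp2a1 to Atp2a3) use ATP to move calcium from the cytosol into the endoplasmic reticulum, and pumps of the PMCA family (Atp2b1 to Atp2b4) move it across the plasma membrane. Sodium-calcium exchangers of the NCX type (Slc8a1, Slc8a2) and potassium-dependent exchangers of the NCKX type (Slc24a2) export calcium against the inward flow of sodium. In hippocampal neurons these proteins set how long a calcium signal lasts in spines, terminals and the cell body.

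The transcripts of these 10 genes were followed in hippocampal polyadenylated RNA from adult mice on a C57BL/6J background. They were chosen by symbol as families, out of 48795 gene identifiers in the count table, and all 10 were found. The choice was made with the result of the same contrast in view, since the families hold a strongly raised gene (Atp2a3) and a strongly lowered one (Slc24a2). Their levels and folds are therefore given as a description and without p-values, and nothing is inferred from them.

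The double knockout (dKO, labelled ifKO) carried floxed alleles of Kdm1a and Kdm5c together with CamKIIα-CreERT2, a recombinase that needs tamoxifen to act and is restricted to forebrain principal neurons. Kdm1a and Kdm5c encode demethylases of histone H3 at lysines that carry the marks of promoters and enhancers. Wild-type (WT) and dKO mice both received tamoxifen, at an age of 2 to 3 months, and each group had 3 libraries. The labels do not say whether WT mice carried the recombinase, nor that libraries came from separate animals, so all error terms measure only the spread between these libraries. Other cells of the tissue keep both genes, and in whole hippocampus fewer cells of a type and less RNA per cell cannot be told apart.

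Total counts were 19309576 to 19700249 per library. Levels are CPM, counts scaled to library size after TMM normalisation, and a gene is said to have risen or fallen where edgeR's quasi-likelihood test gave an adjusted p under 0.05 over all 16861 genes tested. Kdm1a measured 75.2, 76.6 and 69.2 CPM in WT and 38.0, 37.6 and 40.0 CPM in dKO. Kdm5c measured 78.3, 82.8 and 77.2 CPM in WT and 74.3, 72.1 and 65.3 CPM in dKO, which did not pass the threshold (adjusted p = 0.143, edgeR quasi-likelihood test). Both were lower in every dKO library than in any WT library, in whole-gene counts that include the exons left in place.

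The sequences just before the start sites of the gene that rose and of the gene that fell are shown first, as the sequences nearest to the starts of these 2 transcripts. They are the 250 bases upstream of a RefSeq start site in GRCm38.p6, read 5′ to 3′ on the strand of the gene. Capitals mark every match, on either strand, to 6 short motifs, which are GGGCGG (GC box, bound by Sp factors), CCAAT (bound by NF-Y), TATAAA (the box bound by TBP), CACGTG (an E-box core), TGACG (core of the cAMP response element) and GGAAA (core of the NFAT site). Slc24a2 has another RefSeq start site, and the one shown lies farther upstream. The bases that follow it are not in a GENCODE transcript of the gene.
Atp2a3, chr11:72960919-72961168, plus strand: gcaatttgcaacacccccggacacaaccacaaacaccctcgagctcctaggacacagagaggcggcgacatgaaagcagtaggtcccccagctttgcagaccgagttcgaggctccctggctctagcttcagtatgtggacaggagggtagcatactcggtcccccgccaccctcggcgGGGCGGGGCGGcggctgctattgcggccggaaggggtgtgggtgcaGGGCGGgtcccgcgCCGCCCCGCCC
Slc24a2, chr4:87230541-87230790, minus strand: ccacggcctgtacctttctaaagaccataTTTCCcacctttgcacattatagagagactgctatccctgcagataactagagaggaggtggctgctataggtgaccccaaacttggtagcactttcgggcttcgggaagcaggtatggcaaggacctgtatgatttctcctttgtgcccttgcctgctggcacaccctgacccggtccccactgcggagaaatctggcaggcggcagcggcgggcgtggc

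The Atp2a3 window had 66.8% G or C and 20 CpG dinucleotides, and the Slc24a2 window 56.0% and 9, against medians of 52.4% and 6 over 32851 RefSeq promoters. In Atp2a3 the capitals are 5 GC boxes, starting 71, 66, 25, 11 and 6 bases before the start site, and the boxes at 71 and 66 and those at 11 and 6 share a base. At least 1 GC box stood in 32.7% of all promoters of this length, and 5 or more stood in 1.93%. The Slc24a2 window shown held 1 match, to the NFAT core, a motif found in 55.6% of promoters. The window before its other start site, whose following bases are in a GENCODE transcript, had 36.8% G or C and 2 CpG dinucleotides and held 1 CCAAT box, 1 TATA box and 1 cAMP response core. The other motifs stood in 33.9% (CCAAT box), 12.4% (TATA box), 6.02% (E-box core) and 17.8% (cAMP response core) of them.

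RefSeq listed 12 start sites for 8 of the genes. GC boxes were present at 6 of these sites, in 4 genes: Atp2a3, Atp2b1 (4 and 3 boxes at its pair of start sites), Atp2b2 and Slc8a2. Atp2b1, whose transcripts were lower in dKO without passing the threshold, had the most CpG dinucleotides, 43 and 41 at its start sites. Of the 250 bases in the Atp2b1 window with 43, 236 lie in annotated exons of Atp2b1 itself. The same holds for 138 of the 250 bases in 1 Atp2b2 window with a GC box. These windows are thus partly or mostly transcribed sequence by the annotation. A match is a description of letters and not a site of binding.

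The fit could test 9 of the 10 genes. Atp2a3 rose, Slc24a2 fell and 7 did not pass. Over all tested genes 6.95% passed, 5.9% higher and 1.05% lower. The median log2 fold change of the 9 was 0.00, as against -0.01 over all genes. The groups did not overlap for 5 of the 9 genes, and for 25.2% of all tested genes.

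**Figure D1:**
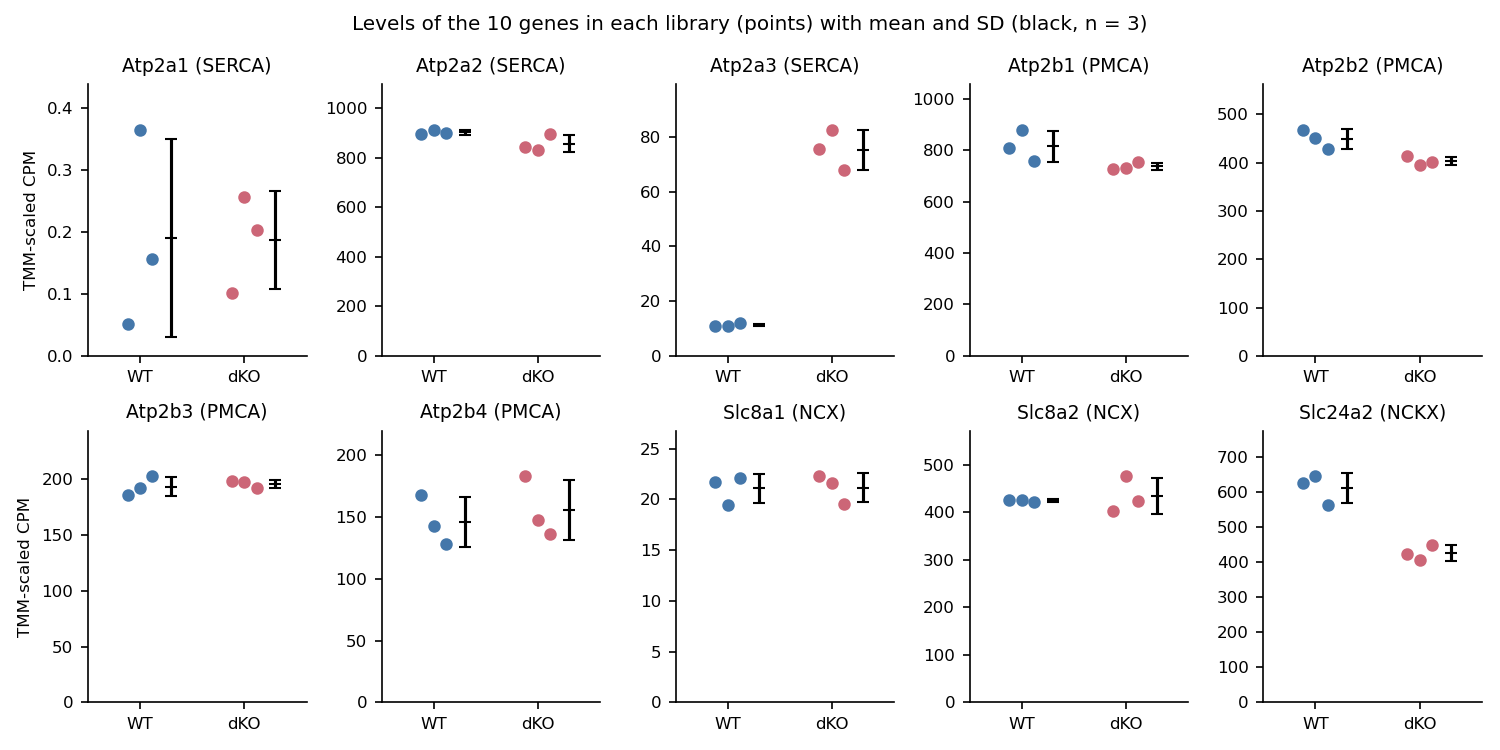
Each panel shows TMM-scaled CPM of 1 gene in the 3 WT libraries (blue points) and the 3 dKO libraries (red points), with the mean and SD of each group in black. Each vertical axis starts at 0 and has its own scale. The dKO points of Atp2a3 (68.0 to 82.6 CPM) lie far above the WT points (11.1 to 11.9 CPM), and those of Slc24a2 (406 to 449 CPM) below the WT points (565 to 645 CPM).

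Among the pumps of the endoplasmic reticulum, the gene that changed had little expression in WT, though more than Atp2a1. Atp2a3 (ENSMUSG00000020788, chromosome 11, 72961169 to 72993044, plus strand) encodes SERCA3, an isoform with low calcium affinity known from blood cells, endothelium and some epithelia. It measured 11.1, 11.1 and 11.9 CPM in WT and 75.5, 82.6 and 68.0 CPM in dKO. The lowest dKO library was thus well above the highest WT library, and the spread within dKO was a factor of 1.21. Its log2 fold change was 2.73 (SE 0.0872), a 6.65-fold rise, and 57 tested genes had a larger one.

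Atp2a2 (ENSMUSG00000029467, chromosome 5, 122453513 to 122502225, minus strand) encodes SERCA2, the pump of the heart and the main SERCA of neurons. It measured 897, 913 and 898 CPM in WT and 845, 830 and 896 CPM in dKO. The highest dKO library lay just under the lowest WT library, and the log2 fold change was -0.07 (SE 0.0496), which did not pass. Atp2a1, the SERCA of fast skeletal muscle, had 1, 7 and 3 counts in WT and 2, 5 and 4 counts in dKO, too few to be tested. The ratio of dKO to WT counts per library size was 1.00 (95% interval 0.394 to 2.55, exact binomial, counting error only). Its annotated exons overlap those of Rabep2 on the other strand, so even these counts cannot be assigned with certainty.

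Genes can be compared with each other only per length, here as CPM per kilobase of merged exons. Atp2a2 stood at 148 ± 1.47 in WT and 141 ± 5.64 in dKO (mean ± SD, n = 3 each, as for all such values here), and Atp2a3 at 2.15 ± 0.0873 and 14.3 ± 1.38. The share of Atp2a3 in the SERCA sum was 1.38 to 1.5% in WT and reached 9.32, 10.3 and 8.04% in dKO. SERCA3 transcripts were therefore a minor part of the family in both groups, and Atp2a2 kept 89.7 to 91.9% in dKO. The SERCA sum was 151 ± 1.48 in WT and 155 ± 4.33 in dKO, with groups that just overlapped (149.7 to 152.4 against 152.3 to 160.2).

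**Figure D2:**
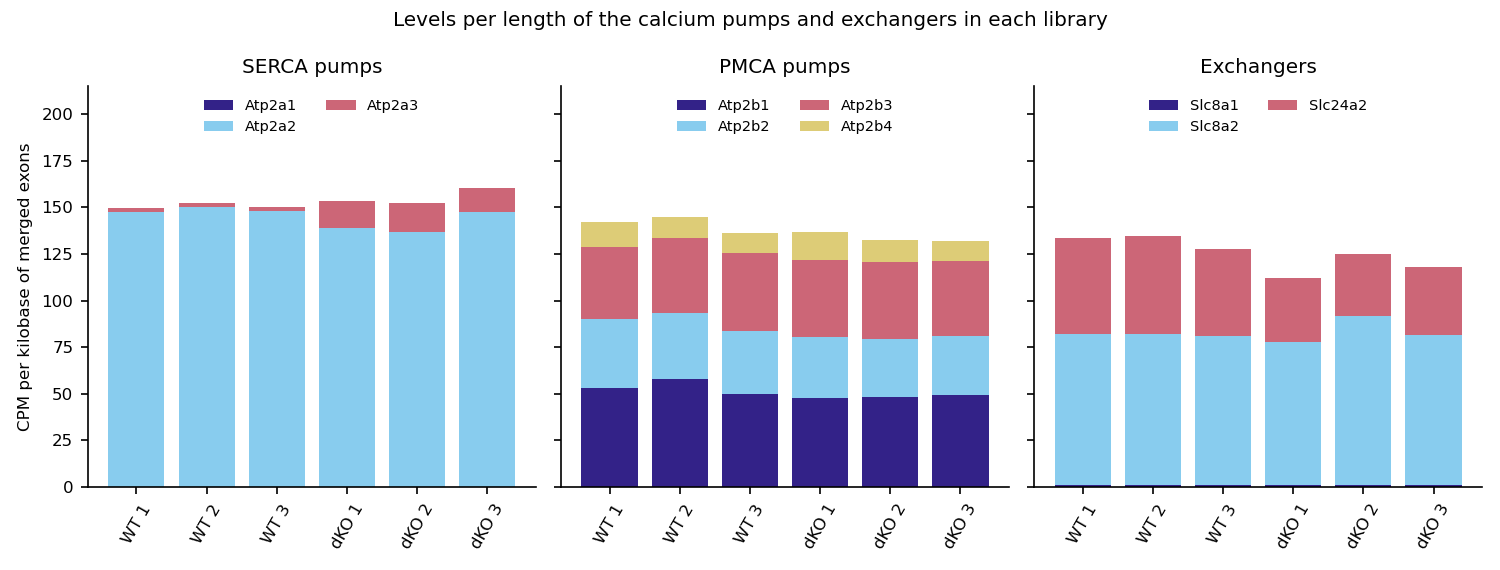
Stacked bars give the level per length (CPM per kilobase of merged exons) of each SERCA, PMCA and exchanger gene in each of the 6 libraries. Atp2a3 is a thin top segment in WT (1.38 to 1.5% of the SERCA bar) and a visible one in dKO (8.04 to 10.3%), and the Slc24a2 segment of the exchanger bar shrinks from 36.3 to 39.2% in WT to 26.6 to 31.1% in dKO.

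None of the plasma membrane pumps passed the threshold, and the 2 with the highest CPM, Atp2b1 and Atp2b2, were 9.43% and 10.2% lower in dKO. Atp2b1 (ENSMUSG00000019943, chromosome 10, 98914406 to 99026143, plus strand), which encodes the widely expressed PMCA1, measured 807, 879 and 756 CPM in WT and 728, 732 and 752 CPM in dKO. The highest dKO value lay just under the lowest WT value, and the log2 fold change was -0.14 (SE 0.0585). Atp2b2 (ENSMUSG00000030302, chromosome 6, 113743831 to 114042613, minus strand) encodes PMCA2, a fast pump needed by cochlear hair cells and Purkinje cells. It measured 468, 451 and 428 CPM in WT and 413, 396 and 400 CPM in dKO, again without overlap, with a log2 fold change of -0.16 (SE 0.0545).

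Without WT replicate 3, which had the lowest WT level of both genes, Atp2b1 (log2 fold change -0.19) and Atp2b2 (-0.19) passed the threshold. The number of genes in these families that fell was then 3 in place of 1. No other left-out library, scaling or test changed the call of any of the 9 genes.

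Atp2b3, the X-linked gene for the neuronal pump PMCA3, measured 186, 192 and 203 CPM in WT and 198, 197 and 192 CPM in dKO. All 3 dKO values lay inside the WT range, and the difference had a 95% interval of -7.05 to 10.4%. Atp2b4, which encodes PMCA4, was the most variable of the 9 tested genes. It measured 168, 142 and 128 CPM in WT and 183, 147 and 136 CPM in dKO, an SD of 13.7% and 15.7% of the mean, and its difference had a 95% interval of -9.35 to 25.0%.

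Per length the 4 PMCA genes together measured 141 ± 4.54 CPM per kilobase in WT and 134 ± 2.52 in dKO, with groups that overlapped. Atp2b1 made up 37.9 ± 1.76% of that sum in WT and 36.2 ± 1.21% in dKO, Atp2b3 28.5 ± 2.12% and 30.4 ± 0.436%, Atp2b2 25.2 ± 0.745% and 23.9 ± 0.166%, and Atp2b4 8.44 ± 1.03% and 9.47 ± 1.30%. The composition of the family differed between groups by no more than 2 percentage points for any member. With the length of the longest transcript in place of merged exons, the share of Atp2b1 was 52.1 ± 1.81% in WT and 50.6 ± 1.25% in dKO.

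Of the exchangers, the potassium-dependent one was lower and both NCX genes overlapped between groups. Slc24a2 (ENSMUSG00000037996, chromosome 4, 86983124 to 87230477, minus strand) encodes NCKX2, an exchanger of cone photoreceptors and of brain neurons. It measured 625, 645 and 565 CPM in WT and 424, 406 and 449 CPM in dKO. The groups were far apart relative to their spread (SD 6.87% of the mean in WT and 5.10% in dKO). Its log2 fold change was -0.52 (SE 0.0625), a loss of 30.4% of the WT level (95% interval -36.5 to -23.5%).

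Slc8a2, which encodes the brain exchanger NCX2, measured 426, 426 and 421 CPM in WT and 402, 475 and 423 CPM in dKO. The dKO libraries lay on both sides of the closely spaced WT libraries, and the 95% interval of the difference was -7.03 to 12.2%. Slc8a1, the exchanger of heart muscle, measured 21.7, 19.4 and 22.1 CPM in WT and 22.3, 21.6 and 19.6 CPM in dKO. These ranges almost coincide, with an interval of -12.2 to 14.5%.

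Per length, Slc8a2 was the leading exchanger of the 3 in both groups, at 80.7 ± 0.529 CPM per kilobase in WT and 82.4 ± 7.18 in dKO. Slc24a2 measured 50.1 ± 3.44 and 34.9 ± 1.78, and Slc8a1 1.12 ± 0.0770 and 1.12 ± 0.0746. The 3-gene sum was 127 to 135 in WT and 112 to 125 in dKO, without overlap. Slc24a2 contributed 37.9 ± 1.51% of it in WT and 29.5 ± 2.52% in dKO.

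**Figure D3:**
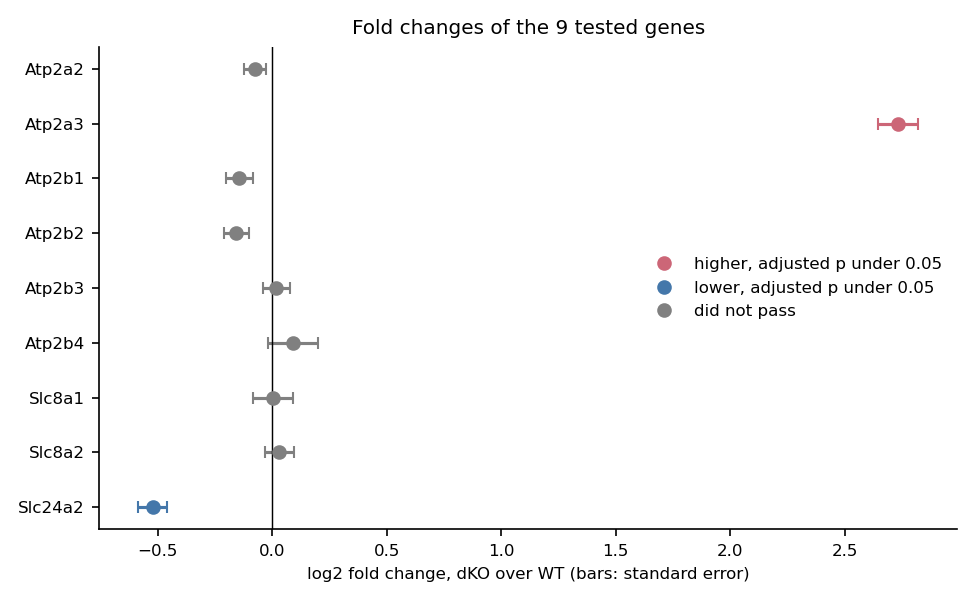
Points give the log2 fold change of dKO over WT for the 9 tested genes and bars its standard error. Atp2a3 stands alone at 2.73 and Slc24a2 at -0.52, while the 7 grey points lie between -0.16 and 0.09.

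Ordered by level per kilobase of merged exons in WT, the genes ran from Atp2a2 and Slc8a2 through Atp2b1 (53.5 ± 4.06 CPM per kilobase), Slc24a2, Atp2b3 (40.1 ± 1.80) and Atp2b2 (35.6 ± 1.6) to Atp2b4 (11.9 ± 1.64), Atp2a3, Slc8a1 and Atp2a1. The middle of this order depended on the length used. Per kilobase of the longest transcript Atp2b1 measured 114 ± 8.67 in WT, above Slc8a2 (80.7 ± 0.529), and Atp2b2 (50.6 ± 2.27) stood above Atp2b3 (41.7 ± 1.87). Slc24a2 was within the spread of Atp2b1 in WT by merged exons, and well below it, at 58.1 ± 3.99, by the longest transcript. In dKO Slc24a2 was below Atp2b3 and above Atp2b2 by merged exons (34.9 against 40.6 and 32.0), and below both by the longest transcript (40.5 against 42.2 and 45.4). Atp2a3, which in WT was well below Atp2b4, was within the spread of Atp2b4 (12.7 ± 1.99) in dKO by merged exons. By the longest transcript it was above that spread in dKO (16.4 ± 1.58 against 13.3 ± 2.07). The sum over the 10 genes was 424 ± 9.41 in WT and 407 ± 4.52 in dKO.

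The few tested neighbours of both outlying genes showed no called change, where 6.95% of all tested genes passed. So few genes cannot show whether either surrounding differed from that share. Within 100 kb of Atp2a3, 5 genes could be tested and 0 rose or fell (edgeR quasi-likelihood test), with 0 at an unadjusted p under 0.05 and 0 called by DESeq2 or limma-voom. The nearest tested gene, that of the ATP receptor P2rx1, was hardly expressed (0.534 CPM in WT and 0.645 in dKO, mean), and Camkk1, a kinase that responds to calcium and calmodulin, had a log2 fold change of -0.10 (SE 0.0604). The single tested neighbour of Slc24a2, the ceramidase gene Acer2, had a log2 fold change of -0.13 (SE 0.129). Around the 10 genes 49 neighbours were tested, and 1 rose and 0 fell, with 2 higher and 3 lower at an unadjusted p under 0.05, and 1 higher in each of DESeq2 and limma-voom. Over all tested genes 5.9% rose and 1.05% fell.

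The neighbour that rose, named after its value was seen, was Pnck, which encodes a calcium- and calmodulin-dependent kinase and lies 84989 bases from Atp2b3 on the other strand. It measured 104, 97.0 and 109 CPM in WT and 230, 233 and 226 CPM in dKO (log2 fold change 1.15, SE 0.0615, adjusted p = 2.95e-08, edgeR quasi-likelihood test). Atp2b3 itself, as given above, did not differ beyond its spread.

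Outside these families, 109 other genes of calcium handling were tested in 9 lists, and 9 rose and 1 fell, which is 9.17% beside 6.95% of all genes. Their median log2 fold change was 0.00. The genes that rose were spread over 6 of the lists.

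Among relatives of the pumps and exchangers, 7 of 8 could be tested, and 1 rose. Atp2c2, a calcium pump of the secretory pathway, measured 1.63, 1.88 and 2.03 CPM in WT and 3.31, 3.61 and 3.35 CPM in dKO (log2 fold change 0.89, SE 0.179, adjusted p = 0.00654, edgeR quasi-likelihood test). Every dKO library was above every WT library. Slc24a3 (log2 fold change 0.00, SE 0.0583) and Slc24a4 (-0.04, SE 0.0718), 2 other NCKX genes, did not pass, nor did the NCX gene Slc8a3 (0.06, SE 0.0998).

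Of 12 genes for proteins that bind or regulate the pumps 0 passed in edgeR, DESeq2 or limma-voom, with 3 at an unadjusted p under 0.05. The list holds phospholamban and sarcolipin, the PMCA subunits neuroplastin and basigin, and the calmodulin genes. The smallest p-values belonged to Calm3, a calmodulin gene (1436 ± 139 to 1281 ± 70.8 CPM), and S100a1, a calcium sensor of muscle and neurons (34.0 ± 7.56 to 41.6 ± 2.14 CPM), both at 0.184 (edgeR quasi-likelihood adjusted p). Their groups overlapped. Without WT replicate 2 Calm3 passed (adjusted p = 0.0164, edgeR quasi-likelihood test), and without WT replicate 3 S100a1 did (0.00189).

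Of 12 genes of the sodium pump, which maintains the gradient that the exchangers use, 1 rose. Fxyd6, a small regulatory subunit, measured 90.1, 79.2 and 89.6 CPM in WT and 123, 105 and 104 CPM in dKO (log2 fold change 0.36, SE 0.0770, adjusted p = 0.0106, edgeR quasi-likelihood test). Without dKO replicate 1, its highest library, the adjusted p was 0.0667.

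Calcium release from the endoplasmic reticulum held the largest folds among the other genes. Of 15 tested, 2 rose and 0 fell. Ryr1, the ryanodine receptor of skeletal muscle, measured 53.5, 68.1 and 51.2 CPM in WT and 106, 124 and 109 CPM in dKO (log2 fold change 0.97, SE 0.0968, adjusted p = 1.41e-05, edgeR quasi-likelihood test). Jph2, which ties the reticulum to the plasma membrane in heart muscle, measured 0.816, 0.731 and 0.520 CPM in WT and 2.75, 2.78 and 4.01 CPM in dKO (log2 fold change 2.20, SE 0.260, adjusted p = 7.4e-05, edgeR quasi-likelihood test).

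Among the genes of calcium entry linked to emptied stores, Orai3, a pore subunit, rose from 28.8 ± 3.64 to 38.3 ± 1.5 CPM (adjusted p = 0.0101, edgeR quasi-likelihood test), a call lost without WT replicate 1 (0.0551) or dKO replicate 3 (0.0511).

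**Figure D4:**
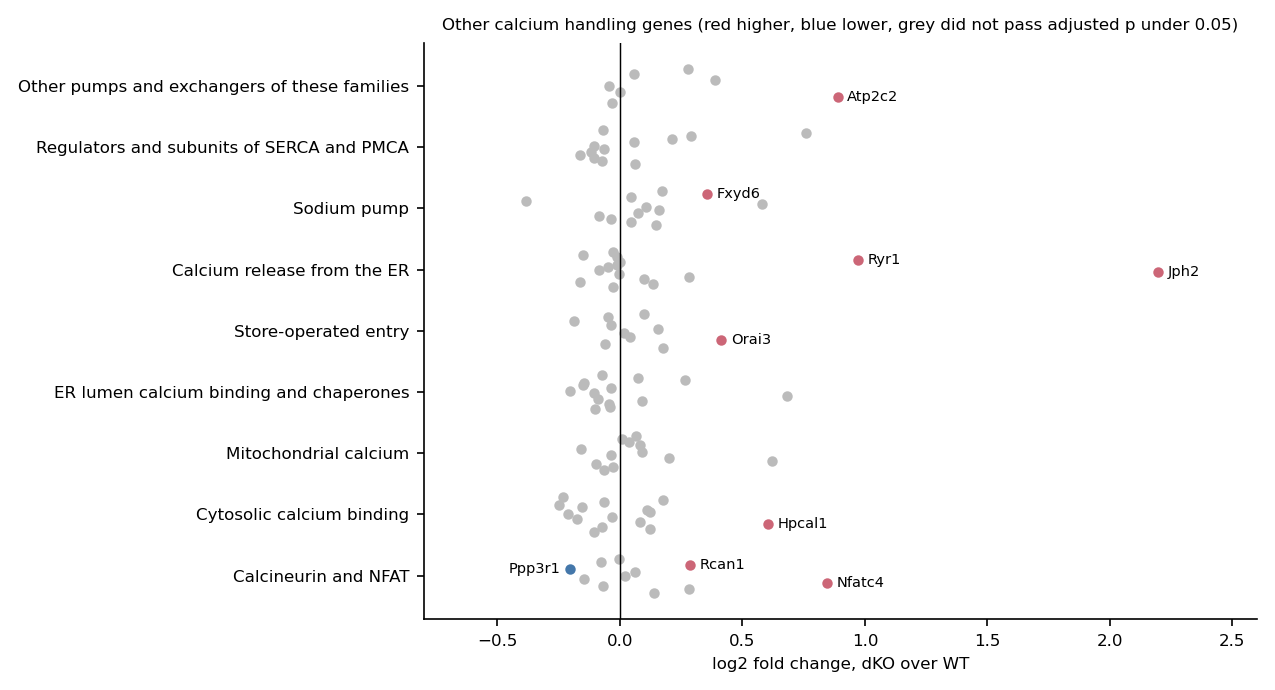
Points give the log2 fold change of dKO over WT for tested genes of the 9 lists of other calcium handling genes, 1 gene left out, red where the gene rose, blue where it fell and grey where it did not pass. Most points lie near 0, and the named ones reach from -0.20 (Ppp3r1) to 2.20 (Jph2).

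In the stores' lumen 0 of 14 genes and in the mitochondria 0 of 12 passed in edgeR, DESeq2 or limma-voom, with 2 and 3 at an unadjusted p under 0.05. Nearest the threshold in these lists were Mcub, a dominant-negative subunit of the mitochondrial uniporter (3.08 ± 0.863 to 4.75 ± 0.188 CPM, adjusted p = 0.0748), and Mcur1 (35.6 ± 0.798 to 40.9 ± 1.64 CPM, adjusted p = 0.100), both in edgeR's quasi-likelihood test. Mcub passed without WT replicate 3 (adjusted p = 0.0405, edgeR quasi-likelihood test) and with no filter on low counts (0.0380). In the lumen, Rcn1 (0.27, SE 0.116) and the chaperone gene Hspa5 (-0.21, SE 0.0943) had the smallest p-values, with groups that overlapped.

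Of 15 cytosolic calcium-binding proteins 1 rose, the neuronal calcium sensor gene Hpcal1, at 38.7 ± 4.43 CPM in WT and 58.7 ± 2.33 CPM in dKO (log2 fold change 0.60, SE 0.0809, adjusted p = 0.000237, edgeR quasi-likelihood test). At an unadjusted p under 0.05 (edgeR) 1 gene of this list was higher and 3 were lower. DESeq2 called 1 higher and 1 lower, and limma-voom 1 higher and 0 lower. Among 11 genes of calcineurin and NFAT, the phosphatase and transcription factors that read sustained calcium signals, 2 rose and 1 fell. Rcan1, an inhibitor of calcineurin, rose from 47.3 ± 1.46 to 57.7 ± 2.02 CPM (adjusted p = 0.0111, edgeR quasi-likelihood test), and the transcription factor Nfatc4 from 1.66 ± 0.0593 to 2.98 ± 0.440 CPM (0.0166). Ppp3r1, the regulatory subunit of calcineurin, fell from 836 ± 48.4 to 726 ± 32.4 CPM (adjusted p = 0.0480, edgeR quasi-likelihood test).

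Atp2c2, Hpcal1, Ryr1 and Jph2 kept their calls in all 13 alternatives, and the calcineurin and NFAT genes did not. Rcan1 lost its call without dKO replicate 2 (edgeR quasi-likelihood adjusted p = 0.0700) or dKO replicate 3 (0.0644). Nfatc4 lost its call without WT replicate 1 (edgeR quasi-likelihood adjusted p = 0.0574), dKO replicate 1 (0.0870) or dKO replicate 2 (0.0507), and in DESeq2 (0.0797). Ppp3r1 lost its call without WT replicate 1 or any 1 of the dKO replicates (edgeR quasi-likelihood adjusted p of 0.0920 to 0.177), with scaling by library size alone (0.0752) and with a filter of 1 CPM in 3 libraries (0.0574). It also lost its call with a replicate block.

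Across the 6 libraries, the genes whose log2 CPM followed that of Atp2a3 most closely were Tmc6 (Pearson r = 0.9995), Klf14 (0.9995) and Phlda3 (0.999). Tmc6, a transmembrane channel-like gene, measured 7.47 ± 0.181 CPM in WT and 19.2 ± 1.03 CPM in dKO. Klf14, a zinc finger transcription factor, had 2 counts in each WT library and 67 to 103 in the dKO libraries. Most of such a correlation is the step between groups, and 490 genes (tested, at least 1 CPM in the higher group, predicted genes left out) had r over 0.95 with Atp2a3.

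For Slc24a2 the closest were Ppm1e (Pearson r = 0.996), a phosphatase of CaM kinases, mt-Nd6 (0.991), a mitochondrial subunit of complex I, and Kcnv1 (0.991), a silent potassium channel subunit. Ppm1e measured 469 ± 23.7 CPM in WT and 373 ± 12.1 CPM in dKO. The number of genes with r over 0.95 was 93, counted by the same rule. The calls of mt-Nd6 and Kcnv1 were lost without some single libraries, with edgeR quasi-likelihood adjusted p up to 0.0914 and 0.0684.

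Cell types known for SERCA3 were followed by marker genes. Of 4 endothelial markers 0 passed, also in DESeq2 and limma-voom and at an unadjusted p under 0.05, and their summed level was 152 to 153 CPM in WT and 155 to 164 CPM in dKO. Of 6 platelet and erythrocyte markers 3 could be tested and 0 passed with any of these tools, with 2 at an unadjusted p under 0.05 and sums of 24.9 to 55.4 and 45.8 to 53.8 CPM, and of its 4 platelet genes Pf4, Ppbp and Gp9 stayed under 1 CPM in every library. The other platelet gene, Itga2b, measured 2.09, 2.46 and 1.82 CPM in WT and 3.21, 3.71 and 2.13 CPM in dKO, with groups that overlapped. Of 6 markers of microglia and other immune cells 5 could be tested and 0 passed with any of these tools, with 3 at an unadjusted p under 0.05 (223 to 243 CPM against 250 to 279 CPM). The sums of the endothelial and immune lists were higher in every dKO library than in any WT library, and their part in the rise of Atp2a3 was not tested.

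In other marker lists single genes passed the threshold. Choroid plexus sums were 28.9 to 43.5 CPM in WT and 57.7 to 121 CPM in dKO, where 1 of 4 markers, Kl, rose from 22.0 ± 1.37 to 58.9 ± 3.45 CPM. Folr1 and Aqp1 averaged under 1 CPM in both groups and did not pass. Ttr, of the same list, measured 19.1, 5.96 and 7.23 CPM in WT and 58.9, 1.6 and 55.9 CPM in dKO. Smooth muscle and pericyte sums overlapped (68.5 to 91.2 and 73.9 to 129 CPM), with 1 of 4 risen, Pdgfrb. Skeletal muscle markers other than Acta1, which rose from 5.86 ± 0.820 to 13.9 ± 2.94 CPM, were under 1 CPM throughout. Markers of the neighbouring habenula and thalamus, tissue that a dissection can include, summed to 40.3 to 46.6 CPM in WT and 53.6 to 55.9 CPM in dKO. Most of this sum was Prkcd, 1 of 3 tested, which rose from 34.9 ± 3.17 to 46.3 ± 1.51 CPM (adjusted p = 0.0038, edgeR quasi-likelihood test). The other tested markers went the other way without passing, Tac2 from 3.57 ± 0.153 to 3.37 ± 0.341 CPM and Tcf7l2 from 5.12 ± 0.127 to 4.70 ± 0.206 CPM. Astrocyte sums were 1510 to 1698 CPM in WT and 1822 to 1842 CPM in dKO, with 1 of 5 risen (Gfap). At an unadjusted p under 0.05 (edgeR) 3 astrocyte markers were higher and 0 lower. Oligodendrocyte sums were 3827 to 4183 CPM in WT and 4379 to 4903 CPM in dKO, with 1 of 4 risen (Mbp) and 2 higher in DESeq2. All 4 oligodendrocyte markers were higher at an unadjusted p under 0.05 (edgeR). Markers of principal neurons summed to 7313 to 7827 CPM in WT and 6712 to 7482 CPM in dKO, and 1 of 7, Neurod6, fell (-0.34, SE 0.0623). Of 6 interneuron markers, 2 precursor markers and 1 tested Purkinje cell marker, 0 passed in edgeR, DESeq2 or limma-voom, with 1 in each list at an unadjusted p under 0.05. The part of these lists in the changes of Atp2a3 and Slc24a2 was not tested.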

How the data were processed

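The authors deposited raw gene counts, 1 column per library, over 48795 Ensembl identifiers. The submitters' processing notes name cutadapt 1.18, HISAT2, HTSeq 0.11.1 and the build GRCm38. Neither strand setting nor annotation release is given in the sources used here, and overlapping genes can share reads. Symbols, coordinates and exon lengths came from GENCODE M21 (360 identifiers with 0.0512% of the counts unmatched), and promoter sequences from RefSeq (GRCm38.p6).

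Genes were filtered with filterByExpr (minimum count 10, minimum total 15), scaled with TMM and tested by edgeR 4.0.16 (R 4.3.3), dKO against WT, without covariates, and p-values were adjusted (Benjamini-Hochberg) over 16861 genes with a threshold of 0.05. The SE is the log2 fold change divided by the square root of F. On simulated data for this comparison, over 16861 genes, 65% of 1.5-fold and 88% of 2-fold changes were recovered. Alternatives included RLE scaling, DESeq2 1.42.0 and limma-voom (limma 3.58.1). Libraries of a group differed by more than sampling noise.

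The genes and lists were chosen with earlier results of these data known. All 10 genes are named. Each list of other calcium handling genes contributes at most 4 called genes, ranked by adjusted p, and a list without calls its 2 lowest p-values. For Atp2a3 and Slc24a2 the 3 genes of highest Pearson correlation are given. Other relatives, markers, neighbours within 100 kb and promoters were taken up afterwards. The values of 1 listed gene are not reported here, though it is included in the counts over all lists.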

Additional observations from a re-analysis of the deposited data

How the results depend on the processing

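Across 13 alternatives (other scalings, tests and filters, a replicate block, and each library left out) Atp2a3 kept a log2 fold change of 2.66 to 2.80 and Slc24a2 of -0.58 to -0.48, and both calls held. The number of these genes that fell was 1 to 3 on leaving out a library. Over all genes the number that fell, 177, was 279 with no filter on low counts and 48 to 323 on leaving out a library, where the number that rose was 676 to 1101. Among the other calcium handling genes the number that fell, 1, was 0 with library size alone and with 1 CPM in 3 libraries, 2 with DESeq2 and with no filter, and 0 to 4 on leaving out a library. There the number that rose was 7 to 12. The difference in the Atp2a3 share of SERCA transcripts, 7.79 percentage points, was 8.27 with the longest transcript and 7.25 to 8.37 on leaving out a library. The cause of these shifts was not tested. Libraries of equal replicate number did not deviate together (correlations of 0.00465, -0.00921 and -0.024). Those of unequal number had correlations of -0.124 to 0.128. With so few libraries these values cannot settle whether any libraries shared a litter, day or batch. With a replicate block 960 genes rose and 149 fell, 1 and 1 of the 9 tested genes of the families did, and 9 and 1 of the other calcium handling genes, though Ppp3r1 was no longer called (edgeR quasi-likelihood adjusted p = 0.0550). With 3 libraries per group small changes can go uncalled, and the intervals given are not limits of detection. They are not adjusted for the number of genes. Those of Atp2b1 and Atp2b2 left out 0, though neither gene was called with all libraries.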
